A study of Mus musculus with 12 samples.

Results

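Interferon-stimulated genes are switched on when interferons bind their receptors on a cell. Type I interferons act through JAK kinases and transcription factors that bind the interferon-stimulated response element (ISRE) of target promoters, whereas interferon gamma acts mainly through the gamma-activated site (GAS). The targets include sensors of viral nucleic acid, enzymes that degrade or block viral RNA, and GTPases that attack the vacuoles of intracellular pathogens. In adipose tissue these genes are known to be expressed by adipocytes as well as by resident and infiltrating immune cells.

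The list held 34 genes chosen by symbol and grouped by role. A probe was matched to 32 of them, of 20660 named genes with a probe on the array, and where a gene had several probes the brightest was used. No probe was matched to Mx1 or Mx2, which were not analysed here. Of the 32 genes, 31 passed the filter on dim probes, and the exception was Oas3.

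RNA was measured in subcutaneous white adipose tissue (scWAT) and brown adipose tissue (BAT) of wild-type (WT) and Lr11 -/- mice on one-colour arrays, 3 for each of the 4 groups. All animals were C57Bl6/J males aged 12 weeks on a high-fat diet (HFD) with 60% of calories from fat, and the Lr11 -/- animals were compared with their WT littermates. Lr11 (gene symbol Sorl1) encodes a sorting receptor of the LDL receptor family, and the knockout was not limited to adipose tissue. The length of the diet is open, since the labels name 4 weeks in one place and feeding since weaning in another. They do not say whether arrays came from separate animals or pooled tissue, so p values measure the spread between arrays. The labels give no replicate numbers, so arrays were numbered within each group in the order of the deposit, and equal numbers do not link arrays. Going by the prefixes of the array titles, replicate 1 of each group came from a first array series and replicates 2 and 3 from a second. Levels are log2 intensities relative to the 75th percentile of the array, which is set to 0. A limma fit covered 32120 probes, each of them well above background throughout 1 or more of the 4 groups, and calls are at an adjusted p under 0.05.

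Between 32377 and 37002 of 59305 spots per array were well above background. Sorl1 separated the genotypes, at 0.91 to 1.15 in WT scWAT against -3.57 to -2.87 in Lr11 -/- scWAT, and at 0.11 to 1.21 in WT BAT against -3.93 to -2.45 in Lr11 -/- BAT. Some scWAT arrays stood apart by tissue markers. On WT scWAT replicate 2 the summed signal of 5 adipocyte markers was 8.40 on the log2 scale, below the 9.35 to 10.64 of the other 11 arrays, and that of 7 macrophage markers was 8.53 against 5.57 to 6.74. The 6 brown adipocyte markers summed to 11.02 to 11.53 on the BAT arrays, and to 11.42 and 11.55 on Lr11 -/- scWAT replicates 2 and 3. The 6 skeletal muscle markers were all well above background on 5 arrays, WT scWAT replicate 3, Lr11 -/- scWAT replicate 1, WT BAT replicates 1 and 3 and Lr11 -/- BAT replicate 1. The 6 epithelium markers were all well above background on Lr11 -/- scWAT replicate 1 alone. They summed to 5.42 there, against -1.075 to 3.08 on the other 11 arrays.

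The promoters of 26 members were found in a RefSeq table of assembly GRCm38.p6, 29 promoters in all, each covering 250 bases before to 50 bases after a transcription start. The core of the ISRE, GAAANNGAAA on either strand, was found in 16 of the 29 promoters (55.2%), against 3.44% of the 32851 promoters in the table. The core of the GAS, TTCNNNGAA, was found in 7 of the 29 (24.1%) against 8.30%. Members were chosen as known interferon targets, so these shares describe the list. The stretches below show the element in some of the genes described later that carry it, first 4 antiviral effectors and the modifier Isg15, then 3 GTPases. Other genes that lead those results are not shown. No ISRE core was found for Oasl1, Cmpk2 and Irf7, and the promoters of Usp18 and Oas2 were not found. They are written from 5′ to 3′ on the strand of the gene, with every ISRE core in capitals.

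Isg15 (chr4:156200846-156200925, minus strand): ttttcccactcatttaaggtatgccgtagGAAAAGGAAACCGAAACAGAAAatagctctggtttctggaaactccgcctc
Ifit1 (chr19:34640759-34640838, plus strand): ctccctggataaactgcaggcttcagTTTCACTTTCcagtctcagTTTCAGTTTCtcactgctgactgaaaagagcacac
Ifit3 (chr19:34583355-34583434, plus strand): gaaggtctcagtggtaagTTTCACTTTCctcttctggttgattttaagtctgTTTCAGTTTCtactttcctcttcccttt
Rsad2 (chr12:26456528-26456607, minus strand): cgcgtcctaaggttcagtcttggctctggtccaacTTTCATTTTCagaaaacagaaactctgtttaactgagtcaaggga
Oas1a (chr5:120907498-120907577, minus strand): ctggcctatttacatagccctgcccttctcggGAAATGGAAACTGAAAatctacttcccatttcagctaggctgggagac
Gbp2 (chr3:142620569-142620648, plus strand): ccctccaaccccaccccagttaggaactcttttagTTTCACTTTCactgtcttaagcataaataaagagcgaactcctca
Igtp (chr11:58199487-58199566, plus strand): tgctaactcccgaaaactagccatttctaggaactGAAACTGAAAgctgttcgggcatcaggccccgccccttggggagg
Irgm1 (chr11:48871403-48871482, minus strand): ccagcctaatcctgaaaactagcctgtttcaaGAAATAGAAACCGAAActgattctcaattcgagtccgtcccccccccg

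Isg15 carried 3 overlapping cores between bases -78 and -57 from its start, and Irgm1 carried 2 overlapping cores between -30 and -15. Ifit1 and Ifit3, which lie on the same chromosome with 3 genes between them, each carried 2 separate cores in the reverse orientation to those of Isg15. In Igtp a GAS core from -45 to -37 lay next to the ISRE core from -34 to -25. The letters of the ISRE core were not found in the window of 10 members, Irf7, Irf9, Trim25, Oasl1, Oasl2, Ifit2, Cmpk2, Ifi35, Ifi44 and Xaf1.

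Members varied more between arrays of the same group than most probes did. The SD within groups, pooled over the 4 groups, had a median of 0.78 over the 32 members and of 0.42 over all tested probes. Many members were bright or dim together on single arrays. Lr11 -/- scWAT replicate 2 was the brightest of its 3 arrays for 30 of 32 members, where 26.4% of all probes were brightest on it. WT BAT replicate 3 was likewise brightest for 30 of 32 members, against 34.6% of probes. In WT scWAT replicate 1 was brightest for 23 members, against 32.6% of probes, and in Lr11 -/- BAT replicate 1 was the dimmest for 29, as it was for 13061 of 32094 probes.

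**Figure D1:**
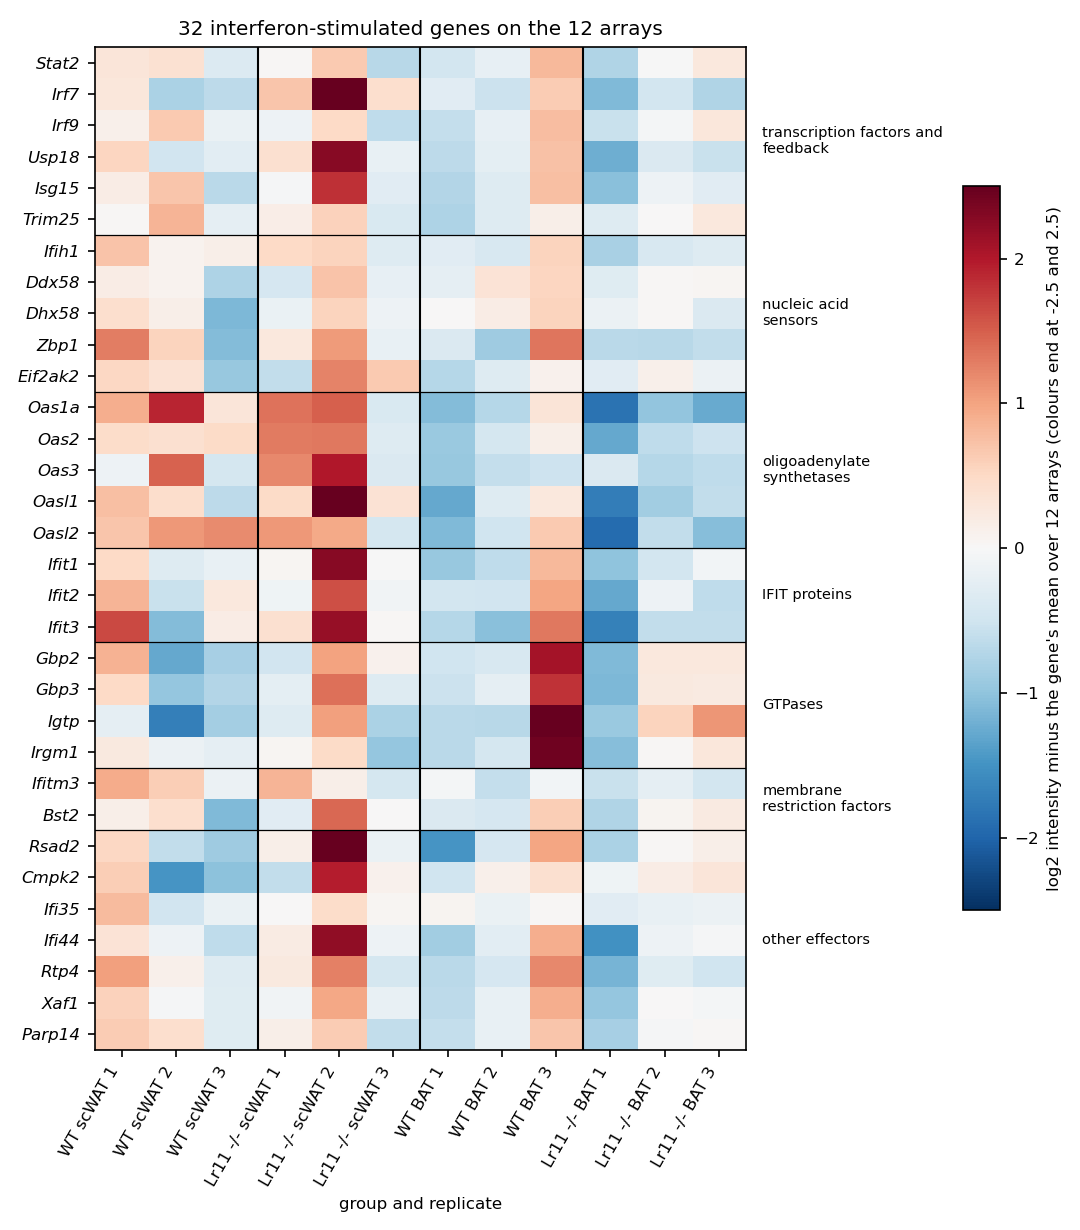
Heat map of the 32 members (rows, by role) on the 12 arrays (columns, by group and replicate), with the log2 intensity minus the mean of that gene over the 12 arrays in colour. Lr11 -/- scWAT replicate 2 and WT BAT replicate 3 are red for most members, and Lr11 -/- BAT replicate 1 is blue for most.

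On Lr11 -/- scWAT replicate 2, members lay above the mean of the other 2 arrays by a median of 1.21 on the log2 scale, and 20 of 32 lay above it by over 1, against 4.69% of all probes. The genes described here and for the next array were chosen after their values were seen. Oasl1, a relative of the oligoadenylate synthetases, was at 0.47, 3.14 and 0.36 on replicates 1, 2 and 3. Rsad2, which encodes the antiviral enzyme viperin, was at 0.64, 3.00 and 0.31. Both were low on 2 arrays and high on the same array, as were the next members. Ifit1, which binds viral RNA with foreign 5′ ends, was at -1.31, 0.91 and -1.38. Cmpk2, a nucleotide kinase gene that lies next to Rsad2 on chromosome 12, was at -1.18, 1.40 and -0.45. Usp18, which removes ISG15 from proteins and dampens interferon signalling, was at -0.01, 1.86 and -0.60. Isg15, the ubiquitin-like modifier itself, was at 2.22, 4.08 and 1.97. The difference of replicate 2 from the other 2 arrays was 2.73 for Oasl1, 2.52 for Rsad2, 2.25 for Ifit1, 2.22 for Cmpk2, 2.17 for Usp18 and 1.99 for Isg15. Over roles, the median of this difference was 1.97 for the 3 IFIT genes, 1.48 for the 6 transcription factor and feedback genes, 1.39 for the 4 GTPases, 1.36 for the 7 other effectors, 1.02 for the 5 sensors, 0.998 for the 5 oligoadenylate synthetases and 0.76 for the 2 membrane restriction factors. The 2 members that were not brightest on this array were Oasl2, at 1.44, 1.31 and -0.08, and Ifitm3, a membrane protein that blocks viral entry, at 4.45, 3.75 and 3.16.

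**Figure D2:**
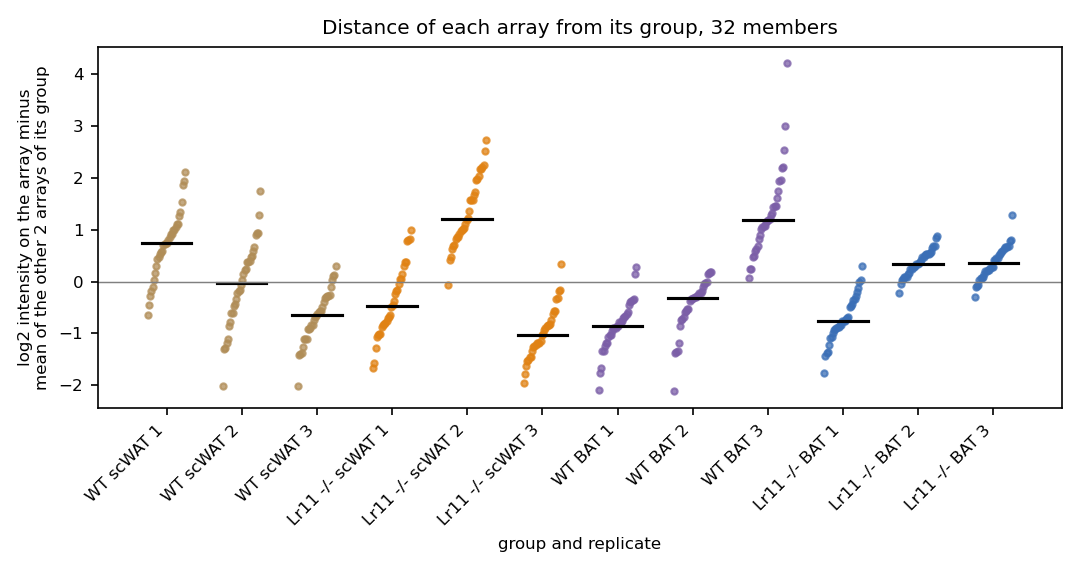
For each array (x axis, group and replicate), the log2 intensity of each of the 32 members minus the mean of the other 2 arrays of the group (y axis), with the points sorted within an array and a black line at their median. The medians are 1.21 for Lr11 -/- scWAT replicate 2 and 1.18 for WT BAT replicate 3, and -0.77 for Lr11 -/- BAT replicate 1.

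On WT BAT replicate 3 the interferon-inducible GTPases were furthest from the other arrays. Members lay above the mean of the other 2 arrays by a median of 1.18, and 22 of 32 by over 1, against 5.24% of all probes. Igtp, a GTPase that acts on pathogen vacuoles, was at 1.62, 1.60 and 5.82 on replicates 1, 2 and 3. Irgm1, a regulator of the same family, was at 0.97, 1.19 and 4.07. Gbp2, a guanylate-binding protein gene, was at 1.71, 1.81 and 4.28. Replicate 3 was the single high array for each. Gbp3, a related gene with 1 gene between it and Gbp2, was at 0.94, 1.25 and 3.28. Ifit3, which stabilises IFIT1 in complexes on RNA, was at -0.34, -0.67 and 1.70. Replicate 3 lay above the other 2 arrays by 4.21 for Igtp, 2.99 for Irgm1, 2.53 for Gbp2, 2.21 for Ifit3 and 2.19 for Gbp3. The median of this difference was 2.76 over the 4 GTPases, 1.61 over the 3 IFIT genes, 1.33 over the other effectors, 1.17 over the transcription factor and feedback genes, 1.07 over the oligoadenylate synthetases and 0.63 over the sensors. On Lr11 -/- scWAT replicate 2 the GTPases, at 1.39, lay below the IFIT genes, and on WT BAT replicate 3 they lay above them, a description without a test. The 2 members not brightest on replicate 3 were Ifitm3, at 3.56, 3.01 and 3.53, and Ifi35, at 1.46, 1.21 and 1.40.

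**Figure D3:**
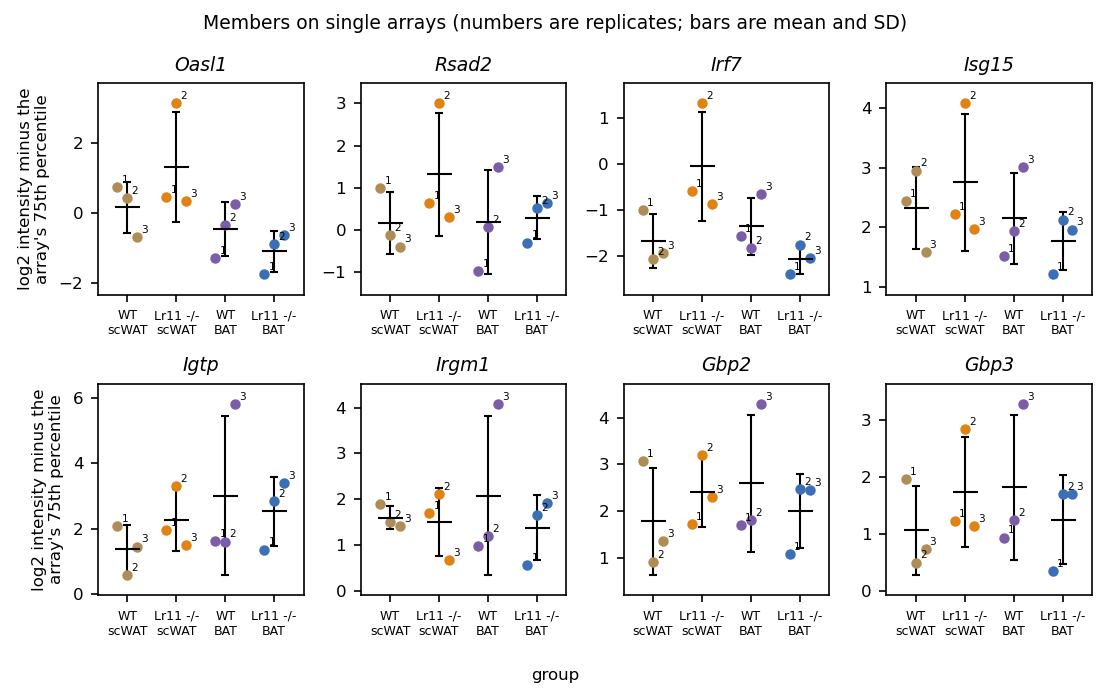
Log2 intensity minus the 75th percentile of the array (y axis) for 8 members in the 4 groups (x axis), with a point for each array, its replicate number beside it, and bars for the mean and SD of 3 arrays. Oasl1, Rsad2, Irf7 and Isg15 are highest on Lr11 -/- scWAT replicate 2, and Igtp, Irgm1, Gbp2 and Gbp3 on WT BAT replicate 3, where Igtp reached 5.82.

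Other genes of the pathway were read beside the members. In a list of 41 other interferon-induced genes, of which 38 had a probe, 27 were brightest on Lr11 -/- scWAT replicate 2 within its group, by a median of 0.70, and 31 on WT BAT replicate 3, by a median of 1.38. Cxcl10, a chemokine that draws T cells and was chosen after its values were seen, was at 0.31, 2.97 and -0.06 on the Lr11 -/- scWAT arrays and at -0.76, -1.45 and 1.61 on the WT BAT arrays. Ifng, the gene of interferon gamma itself, was well above background on 4 of 12 arrays and was at -4.99, -6.28 and -1.35 in WT BAT, with replicate 3 the only one of those 3 above background. In Lr11 -/- scWAT it was at -3.82, -3.61 and -5.93, with replicates 1 and 2 above background. Of the type I genes, Ifnb1, the gene of interferon beta, and Ifna4 were not well above background on any array. Ifnk was above it on WT scWAT replicates 1 and 2, on Lr11 -/- scWAT replicate 1 and on Lr11 -/- BAT replicate 1. It was highest on the last of these, at -1.16. Ifna1, at -2.98 to -2.05, and Ifna2, at -4.27 to -2.998, were above background on all 12 arrays. The type III gene Ifnl3, at -1.40 to -0.62, was also above it on all 12. The interferon alpha genes are close relatives, and whether their probes bind each other's RNA was not checked. Most markers of macrophages and of T and NK lymphocytes were brightest on the same arrays, whereas other immune lists differed between them. Of 7 macrophage markers, 6 were brightest on WT BAT replicate 3 within its group, by a median of 0.43 over the list, and 4 on Lr11 -/- scWAT replicate 2, by a median of 0.35. Of 8 T and NK lymphocyte markers, 7 were brightest on WT BAT replicate 3, by a median of 1.59, and 6 on Lr11 -/- scWAT replicate 2, by a median of 1.05. The T and NK list had 6 markers well above background on each of both arrays, against 4 or 5 on the other arrays of these groups. Their summed signal on the log2 scale ranged from 2.80 to 3.38 in WT BAT, 2.94 to 3.28 in Lr11 -/- scWAT, 2.19 to 2.71 in WT scWAT and 2.96 to 3.11 in Lr11 -/- BAT, and 1 marker, Nkg7, passed the threshold between genotypes in scWAT (0.89, adjusted p = 0.0435 in limma). The skeletal muscle markers lay a median of 4.76 above the other 2 arrays on WT BAT replicate 3 and -7.22 from them on Lr11 -/- scWAT replicate 2, where the brown adipocyte markers differed by 2.32. The part of these markers in the members' levels was not tested. In bulk tissue, fewer cells of a type and less RNA per cell cannot be told apart.

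The comparison of genotypes in scWAT asked whether loss of Lr11 went with a change in these genes. None of 31 members passed the threshold in the limma fit, where 5.27% of all probes did, and 1 member had an unadjusted p under 0.05, against 27.6% of all probes. Means were higher in Lr11 -/- for 23 of 32 members, against 52.5% of all probes, with a median difference of 0.30 over the members and 0.04 over all tested probes. Cell type markers differed in the same comparison. The 6 brown adipocyte markers were all higher on average in Lr11 -/- (median 6.23, 3 past the threshold), as were the 5 adipocyte markers (median 1.92, none past it). All 7 macrophage markers (median -0.94, none past the threshold) and all 5 B lymphocyte markers (median -1.31, none past it) had lower means. So did 4 of 5 neutrophil markers (median -3.25, 1 past it). Higher means were found for 4 of 5 plasmacytoid dendritic cell markers (median 0.84, none past it) and 6 of 8 T and NK lymphocyte markers (median 0.35, 1 past it). In BAT the median level of the plasmacytoid list was 5.66, 5.86 and 5.11 on the arrays with all skeletal muscle markers above background. On the other BAT arrays it was -3.82, -3.22 and -2.97. The list is therefore not read as an amount of these cells. The part of these lists in the members' difference was not tested. Irf7, the transcription factor that amplifies the type I response, was at -1.002, -2.06 and -1.93 in WT and at -0.59, 1.32 and -0.86 in Lr11 -/-. It was the only member whose genotypes did not overlap, where 11.7% of all probes were higher without overlap. Its difference was 1.62 (SE 0.55, adjusted p = 0.0966), and it was 0.94 (adjusted p = 0.269) without Lr11 -/- scWAT replicate 2 and 0.42 within the first array series. Cmpk2 was at 0.06, -2.04 and -1.58 in WT, overlapped with the Lr11 -/- values given above, and differed by 1.11 (SE 0.66, adjusted p = 0.298). Oasl1 was at 0.74, 0.43 and -0.67 in WT, and its difference of 1.16 (SE 0.72, adjusted p = 0.325) also came with overlapping groups. By role, the median difference ranged from 0.14 over the 2 membrane restriction factors to 0.65 over the GTPases. All 3 IFIT genes and 6 of 7 other effectors had higher means in Lr11 -/-, whereas Oasl2 (-0.45), Irf9 (-0.29) and Ifitm3 (-0.28) had the lowest differences.

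The median over the members depended on single arrays of both genotypes. Without Lr11 -/- scWAT replicate 2 it was -0.03, with 15 of 32 members higher in Lr11 -/-, and without WT scWAT replicate 3 it was 0.04. Without WT scWAT replicate 2, the array low in adipocyte markers, it was 0.29. Within the first array series, with 1 array per group and no test, it was -0.32, and within the second it was 0.71. In the first, Cmpk2 differed by -1.24 and Oasl1 by -0.27. In the second series alone Cmpk2 passed the threshold, with a difference of 2.29 (adjusted p = 0.0388 in limma) where 21.7% of all probes did.

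In BAT, 0 of 31 members passed the limma threshold, against 0.0187% of all probes, and 0 had an unadjusted p under 0.05, against 2.12%. Means were lower in Lr11 -/- for 27 of 32 members, against a higher mean for 57% of all probes, and the median difference was -0.41 over the members and 0.04 over all tested probes. Lower means were also found for all 5 B lymphocyte (median -0.79), 6 of 8 T and NK lymphocyte (median -0.11) and all 6 skeletal muscle markers (median -3.80). All 6 brown adipocyte markers had higher means (median 0.78). None of these markers passed the threshold, and their part in the members' difference was not tested. The genotypes did not separate in any of the 32 members, where 7.39% of all probes were higher and 4.65% lower in Lr11 -/- without overlap. Oasl2, a ubiquitin-like relative of the synthetases, was at -0.74, -0.13 and 1.01 in WT and at -1.56, -0.26 and -0.71 in Lr11 -/-, a difference of -0.89 (SE 0.53, adjusted p = 1). Oas1a, which makes the oligoadenylates that activate RNase L, was at -0.09, 0.28 and 1.31 in WT and at -0.87, 0.00 and -0.28 in Lr11 -/-, a difference of -0.88 (SE 0.57, adjusted p = 1). Ifih1, the gene of the RNA sensor MDA5, was at 0.06, -0.05 and 0.90 in WT and at -0.46, -0.06 and 0.02 in Lr11 -/-, a difference of -0.47 (SE 0.33, adjusted p = 1). In each of the 3 genes the WT array furthest from the Lr11 -/- arrays was replicate 3. Without WT BAT replicate 3 the median over the members was 0.02, with 17 of 32 higher in Lr11 -/-, and without Lr11 -/- BAT replicate 1 it was -0.13. It was -0.35 in the first array series and -0.43 in the second.

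**Figure D4:**
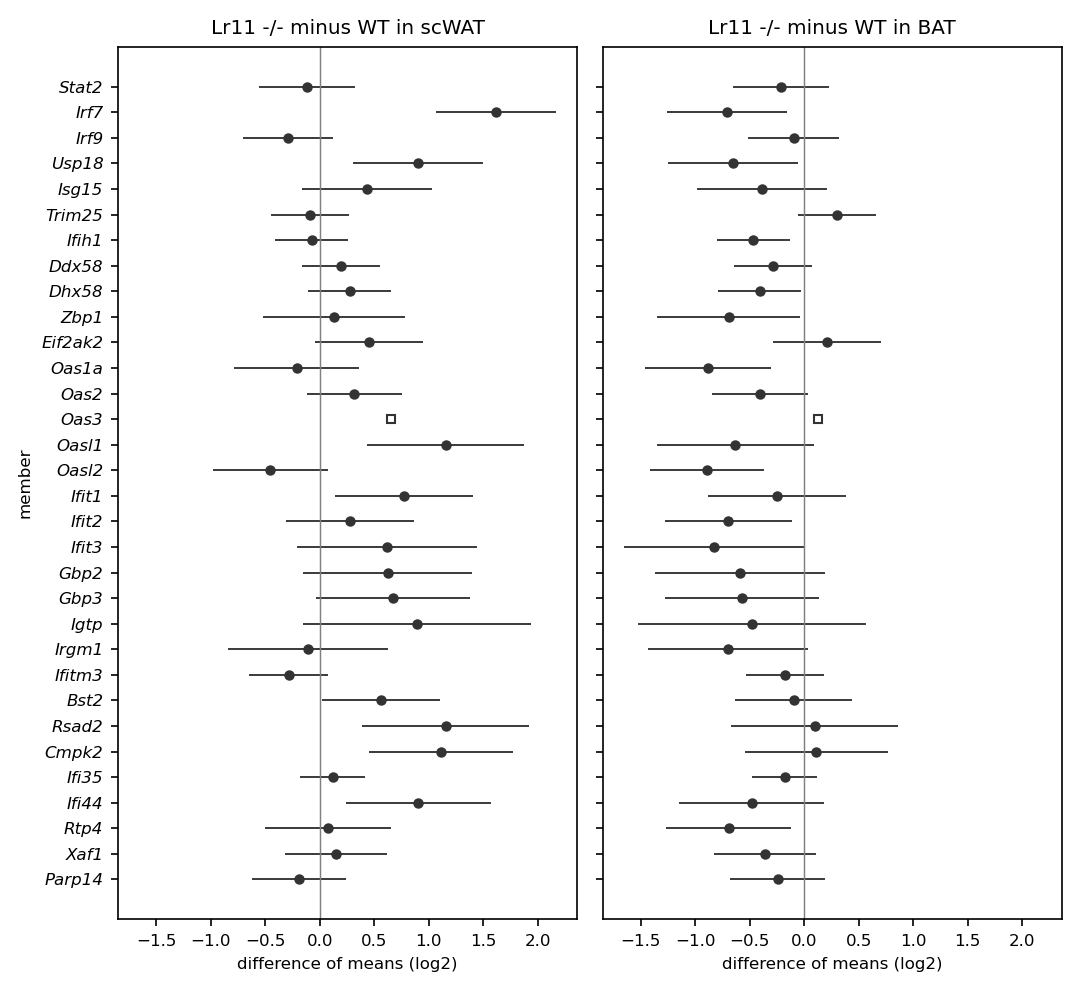
Difference of group means, Lr11 -/- minus WT on the log2 scale (x axis), for the 32 members (y axis, by role) in scWAT and in BAT, with bars for the standard error of the limma fit. The open square is Oas3, which was not tested, and the largest difference is that of Irf7 in scWAT, 1.62.

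The difference between both genotype effects was tested as an interaction, the effect in scWAT minus that in BAT. It passed the limma threshold for 0 of 31 members and for 0% of all probes, and 1 member had an unadjusted p under 0.05, against 11% of probes. Irf7 had an interaction of 2.33 (SE 0.78, adjusted p = 0.403). Oasl1 had one of 1.79 (SE 1.02, adjusted p = 0.531), and Usp18 one of 1.56 (SE 0.85, adjusted p = 0.513). The median over the members was 0.71, against 0.02 over all tested probes, with 29 of 32 above 0, as were 51.1% of all probes. It was 0.27 without Lr11 -/- scWAT replicate 2 and 0.32 without WT BAT replicate 3, and -0.13, with 9 of 32 above 0, without both.

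In the comparison of depots, the 4 tested oligoadenylate synthetase genes had lower means in BAT than in scWAT in both genotypes. Their median difference, BAT minus scWAT, was -1.07 in WT and -1.96 in Lr11 -/- on the log2 scale. None of the 4 passed the threshold, though in Lr11 -/- 3 of them did under array weights. More of all probes also passed under array weights, by a share given below with the Lr11 -/- depots. Macrophage markers were also lower in BAT, all 7 in WT (median -2.09, 4 past the threshold) and all 7 in Lr11 -/- (median -0.83, none past it). Their summed signal was 6.73 to 8.53 in WT scWAT and 5.57 to 6.15 in WT BAT, and 6.26 to 6.50 in Lr11 -/- scWAT and 5.65 to 5.93 in Lr11 -/- BAT, with 6 or 7 of 7 above background on every array. The 5 adipocyte markers had higher means in BAT in WT (median 2.23, 3 past the threshold). In WT, all 5 B lymphocyte (median -0.52, none past it) and all 5 neutrophil markers (median -1.12, 1 past it) had lower means in BAT. In Lr11 -/-, 7 of 8 T and NK lymphocyte (median -0.355) and all 6 epithelium markers (median -2.21) were lower there, none past it. The 5 endothelium markers had higher means in BAT in both genotypes (medians 0.48 in WT and 0.46 in Lr11 -/-). The part of these lists in the members' differences was not tested. Oas1a was at 1.89, 2.88 and 1.28 in WT scWAT and at 2.33, 2.47 and 0.61 in Lr11 -/- scWAT, against the BAT values given above. Oasl2 was at 1.05, 1.45 and 1.54 in WT scWAT, above every WT BAT array. Oas2, another synthetase, was at 1.28, 1.22 and 1.29 in WT scWAT and at -0.11, 0.39 and 0.97 in WT BAT. It was at 2.12, 2.14 and 0.49 in Lr11 -/- scWAT and at -0.46, 0.17 and 0.31 in Lr11 -/- BAT, without overlap in either genotype. Oasl1 was at -1.28, -0.33 and 0.26 in WT BAT and overlapped with WT scWAT, where its 2 arrays of the second series were not above those of BAT on average. Oas3, a longer synthetase, was not well above background on all 3 arrays of any group. It was well above background on 1 array of Lr11 -/- scWAT, where its 3 values were -4.66, -3.85 and -6.21. Its order between groups is not read on its own here. Counts and medians over 32 members or 5 oligoadenylate synthetases do include it.

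**Figure D5:**
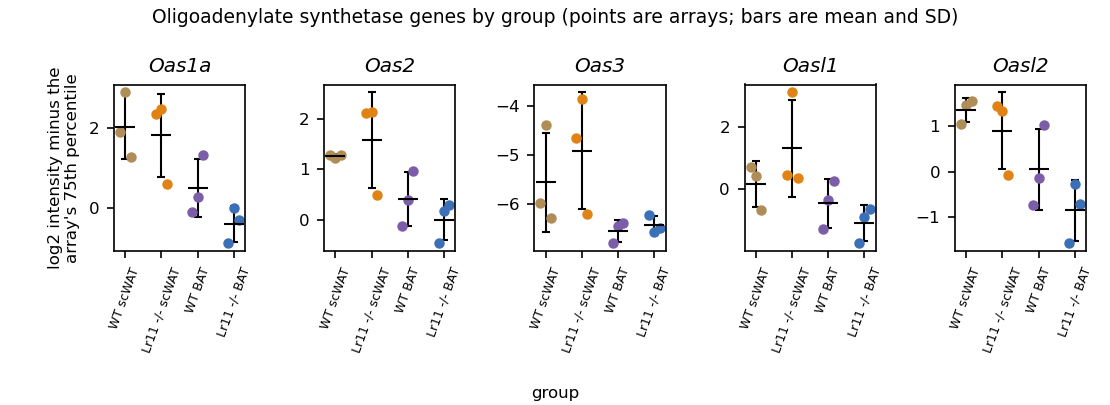
Log2 intensity minus the 75th percentile of the array (y axis) of the 5 oligoadenylate synthetase genes in the 4 groups (x axis), with a point for each array and bars for the mean and SD of 3 arrays. The 4 tested genes have lower means in BAT than in scWAT in both genotypes, and Oas3, which was not tested, lies near background.

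In WT, 0 of 31 members passed the limma threshold between BAT and scWAT, against 24.8% of all probes, and 2 had an unadjusted p under 0.05, against 40.1%. The difference, BAT minus scWAT, was -1.52 for Oas1a (SE 0.57, adjusted p = 0.0757). For Oasl2 it was -1.30 (SE 0.53, adjusted p = 0.0918). For Ifitm3, at 4.54, 4.22 and 3.46 in scWAT and 3.56, 3.01 and 3.53 in BAT, it was -0.71 (SE 0.36, adjusted p = 0.168). Oas2 and Oasl2 were lower in BAT without overlap, 2 of 31 tested members against 15.9% of all probes. The median over the members was -0.17, against 0.07 over all tested probes, and 12 of 32 were higher in BAT, as were 53.6% of all probes. The 4 GTPases had higher means in BAT, by a median of 0.79, with WT BAT replicate 3 among the arrays. Without that array the median over the members was -0.60, and 1 member, Oasl2, passed the threshold at -1.78 (adjusted p = 0.0432 in limma). In the fit over all 12 arrays, 24.8% of all probes passed, and the share in the fit without WT BAT replicate 3 is not given here. In the first array series the scWAT arrays were on slide 1 and the BAT arrays on slide 3, where depot and slide cannot be told apart, and all arrays of the second were on slide 2. With the slide as a block the median over the members was 0.15, with 22 of 32 higher in BAT, and Oas1a was at -1.15 (adjusted p = 0.242). The order of depots also turned with the array series, from a median of -1.15 with 0 members higher in the first to 0.41 in the second, whereas Oas1a was at -1.98 in the first and -1.29 in the second.

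In Lr11 -/-, 0 of 31 members passed the limma threshold between depots, against 0.0405% of all probes, and 8 had an unadjusted p under 0.05, a share of 25.8% against 9% of all probes. The means of 31 of 32 members were lower in BAT, while 56.6% of all probes had a higher mean there, with a median of -0.67 against 0.07 over all tested probes. The difference was -2.19 for Oas1a (SE 0.57, adjusted p = 0.356). For Irf7, at -2.38, -1.74 and -2.04 in Lr11 -/- BAT, it was -2.01 (SE 0.55, adjusted p = 0.36). For Oas2 it was -1.58 (SE 0.44, adjusted p = 0.365). With array weights 4 members passed the threshold, Irf7 (adjusted p = 0.0186 in limma), Oas1a (adjusted p = 0.0262), Oas2 (adjusted p = 0.0484) and Oasl1, where 5.66% of all probes did. Depots did not overlap for 12 of 31 tested members, all lower in BAT, where 9.17% of all probes were lower without overlap. These were the 4 tested oligoadenylate synthetases and all 3 IFIT genes with Irf7, Usp18, Ifih1, Zbp1 and Ifi35. The median was -0.28 without Lr11 -/- scWAT replicate 2, -0.99 without replicate 1 and -0.97 without replicate 3. It was -0.998 in the first array series and -0.81 in the second. The first series leaves out the 2 scWAT arrays with brown adipocyte markers at the level of BAT. Its scWAT array, replicate 1, had all 6 skeletal muscle and all 6 epithelium markers above background. Depot and slide cannot be told apart in that series. The Lr11 -/- scWAT arrays served in this comparison, in that of genotypes in scWAT and in the interaction, so these results are not independent of each other.

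Over the 4 groups, the highest mean was in Lr11 -/- scWAT for 18 members, in WT scWAT for 8, in WT BAT for 6 and in Lr11 -/- BAT for 0. The lowest was in Lr11 -/- BAT for 21, in WT scWAT for 8 and in WT BAT for 3. The same order was not counted over all probes, so no share stands beside these counts. The means include Lr11 -/- scWAT replicate 2, brightest of its group for 30 of 32 members, and Lr11 -/- BAT replicate 1, dimmest for 29. The pathway lists other than the members had 0 calls in either genotype comparison and in the interaction. Between the depots in WT, where 24.8% of all probes passed the threshold, 2 of 15 JAK-STAT and IRF signalling genes were lower in BAT, Irf5 (-2.12, adjusted p = 0.0199), a factor of inflammatory gene expression, and the kinase gene Jak1 (-0.65, adjusted p = 0.0295). Of 17 tested genes of nucleic acid sensing, 2 were higher, the adaptor genes Mavs (1.56, adjusted p = 0.0147) and Ticam1 (1.10, adjusted p = 0.0265), and 2 lower, the receptor gene Tlr4 (-1.05, adjusted p = 0.0147) and the kinase gene Ikbke (-2.40, adjusted p = 0.0206). Of 37 tested other interferon-induced genes 1 was higher, Ifi27 (3.00, adjusted p = 0.0094), and 4 were lower, among them Ifitm1 (-3.49, adjusted p = 0.0177), Ifi204 (-1.63, adjusted p = 0.0271) and Apol9b (-2.35, adjusted p = 0.0276). Of 8 tested ligand and receptor genes 0 passed the limma threshold, with 3 at an unadjusted p under 0.05.

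Of the 8 members with 2 probes, the second probe gave the same side of the threshold wherever it was tested. In scWAT the probes of Ddx58, the gene of the RNA sensor RIG-I, differed in sign close to 0, at 0.20 and -0.02, as did those of Irgm1, at -0.11 and 0.01. In BAT the probes of Cmpk2 gave 0.11 and -0.02, and between the depots in WT those of Xaf1 gave -0.06 and 0.38. Oas1a and Ifit3 have close relatives in the genome, and whether their probes also bind those was not checked.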

How the data were processed

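Intensity values of 12 one-colour Agilent arrays were deposited by the authors, made with Agilent Feature Extraction 10.10 per the submitters' processing notes, background-subtracted and not normalized between arrays. The deposited table of the whole series held the same intensity values (largest difference 0). Outlier spots (128 to 181 per array) were left out, spots of a probe averaged on the log2 scale, and the 75th percentile (374 to 632) subtracted. Of 28685 probes with a RefSeq accession, 27235 were named through a gene table of GRCm38.p6. One mean per group was fitted in limma 3.58.1 (R 4.3.3) with Benjamini-Hochberg adjustment over 32120 probes. Figures were drawn with matplotlib 3.10.9. The fit was tested on simulated data. No saturated spots were found, and precision is limited by having 3 arrays per group.

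The members and lists were chosen with earlier results of these data known. The text names members past the threshold or, where none passed, the 3 with the smallest p, those without overlap between genotypes, dim members and Sorl1, and of the other pathway lists genes past the threshold. Other genes named were chosen after their values were seen. Alternatives were other scalings, background correction, filters, probe rules, batch terms, weights and single arrays left out. Leaving out both bright arrays was chosen after seeing the data.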

Additional observations from a re-analysis of the deposited data

How the results depend on the processing

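No paired analysis was possible because the labels carry no replicate numbers. Under every alternative that gave a test, 0 members passed the threshold in BAT between genotypes and in the interaction. Between the depots in WT 1 member, Oas1a, passed without scaling, and leaving out single arrays gave 0 to 1. That 1 was Oas1a without WT scWAT replicate 3 (-1.89, adjusted p = 0.0479 in limma) or without Lr11 -/- scWAT replicate 3 (adjusted p = 0.0443), and Oasl2 without WT BAT replicate 3. In the main fit 24.8% of all probes passed in this comparison, and the shares in these other fits are not given here. Between the depots in Lr11 -/- array weights gave 4 members (Irf7, Oas1a, Oas2 and Oasl1) where 5.66% of all probes passed, and in scWAT between genotypes the second array series alone gave 1 (Cmpk2). The median over the members moved in the first array series alone to -0.15 for the interaction and -1.15 for the depots in WT, and to -0.13 for the interaction without both bright arrays. The causes were not tested. With the slide as a block the depot median in WT was 0.15. Under single arrays left out the medians ranged from -0.03 to 0.54 in scWAT, -0.69 to 0.02 in BAT, 0.27 to 1.17 for the interaction, -0.60 to 0.18 between depots in WT and -0.99 to -0.28 in Lr11 -/-. Without scaling the median of all tested probes shifted by -0.25 in scWAT and -0.32 between depots in WT, and with median scaling by 0.12 and 0.13. Under other scalings and processing, members brightest within their group numbered 24 to 30 on Lr11 -/- scWAT replicate 2 and 28 to 31 on WT BAT replicate 3. Oas3 was too dim to be tested. Of the results for single members, 8 moved by more than the spread between arrays. Among them, in the first array series alone and with no test, Cmpk2 (-1.24) and Oasl1 (-0.27) changed sign in scWAT. The remaining results kept their direction and side of the threshold or moved by less than the spread between arrays.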
